A study of Homo sapiens with 42 samples.

Results

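7SL pseudogenes are copies and fragments of the 7SL RNA genes scattered through the human genome, and they were followed here in small RNA libraries of human cells. They were chosen from the deposited count table as rows annotated as the metazoan signal recognition particle RNA, at most 500 bases long and without the symbols of the functional genes RN7SL1, RN7SL2 and RN7SL3. Of 175946 rows, 7895 met that rule. A further 17 were set aside because they overlap another short structured RNA, and 75 were merged into a longer copy they overlap (14 counts in all). The largest row set aside, at chr11:118994334-118994637, held 4917 counts, and a Y RNA row over it held 4916 of them. That left 7803 pseudogenes among 85933 rows that do not overlap. The rule itself used no measured value, but it was set with earlier results of these data known.

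The study sequenced small RNA of THP-1 cells, a monocytic leukaemia line, edited in POLR3G or POLR3GL, and of HEK293T cells, a human embryonic kidney line, given antisense oligonucleotides. RNA polymerase III (Pol III) holds 1 or the other of these paralogous subunits. The 30 libraries with a column fall into 10 groups of 3, namely A4, A7, E4 and G8 of THP-1 and the mock group, each without and with phosphatase and polynucleotide kinase treatment (minus or plus PNK). That treatment makes RNA ends fit for adapter ligation, so fragments whose ends would block it are also read. The other 12 of 42 samples (con, and cells with the oligonucleotide against POLR3G) are not analysed here.

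A4, A7, E4 and G8 carry no treatment in their labels, and the labels do not say which subunit was targeted in which of them, nor whether each is 1 clone. The labels describe mock as HEK293T cells with a control oligonucleotide at 200 nM. Neither POLR3G nor POLR3GL has a row, so the loss of either was not measured. The labels do not say that the 3 libraries of a group came from separate cultures, so every p-value reflects only how these libraries vary. Depth over the rows kept was 9651499 to 13269727 counts per library minus PNK and 5530372 to 7856731 plus PNK. Without PNK, microRNA held 2.01% to 25.9% of the counts, and the lowest shares were in G8 libraries 1 and 2. The cell type markers go against the label of the mock group. MIR142, a microRNA of blood cells, stood at 1754 to 3244 counts per 1000000 counts of the library (CPM) in its minus PNK libraries, and at 1587 to 2514 CPM in A4.

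The 7SL RNA is the scaffold of the signal recognition particle, the ribonucleoprotein that binds the signal peptide of a nascent secretory protein and brings its ribosome to the endoplasmic reticulum. Pol III transcribes its genes from an internal promoter helped by an element just before the start. The start and the end of the RNA form the Alu domain, from which the Alu repeats of primates derive, and the middle forms the S domain that holds the signal peptide binding protein. 7SL sequence was copied into the genome many times by retrotransposition, and most copies are truncated, diverged, and lack the upstream element.

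The copies differ in how well a short read can be told from a gene's. Each pseudogene's sequence in GENCODE release 29, on GRCh38 and read along the RNA, was aligned to RN7SL1, RN7SL2 and RN7SL3. Each stretch of at least 25 bases that occurs unchanged in 1 of the 3 genes was noted, a length at which a short read taken from inside the stretch would match both. The 4 pseudogenes with the most counts are RN7SL5P on chromosome 9, RN7SL4P on chromosome 3, RN7SL128P on chromosome 6 and RN7SL674P on chromosome 2. RN7SL118P, on chromosome X, stands for the diverged copies.

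The most counted copies follow the first part of the gene at high identity and then leave it. RN7SL5P matched RN7SL1 at 99.6% of 235 aligned bases, from the gene's base 1 to its base 235, and its longest unchanged stretch was 209 bases. RN7SL4P matched RN7SL2 at 98.7% of 232 bases, with a stretch of 192. RN7SL128P matched over 201 bases at 95.02%, RN7SL674P over 200 bases at 97.5%, and RN7SL767P over 196 bases at 96.4%. RN7SL396P matched over 196 bases at 96.4%, from the gene's base 4 to its base 199. These 6 copies hold the first part of the Alu domain and much of the S domain, and none of them was alignable to the gene's end. In RN7SL128P, RN7SL396P and RN7SL767P the first unchanged stretch of at least 25 bases begins only at the gene's base 62, 41 and 40. By comparison, RN7SL1 matches RN7SL2 at 98.7% and RN7SL3 at 97.7% of its bases.

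The diverged copies have the opposite shape. RN7SL408P was alignable over 276 bases at 90.2% identity, RN7SL508P over 279 at 84.9%, RN7SL795P over 272 at 83.8% and RN7SL118P over 295 at 85.1%. Their longest unchanged stretches were 37, 33, 31 and 26 bases. Of the 687 pseudogenes with a 7SL entry in GENCODE, the median identity was 83.9% (range 71.9% to 99.6%) over a median of 276 bases. Only 7 of the 687 reached 95% identity over 150 bases or more, and 380 shared no 25 bases with any of the 3 genes. The other 7116 pseudogenes have no such entry.

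**Figure D1:**
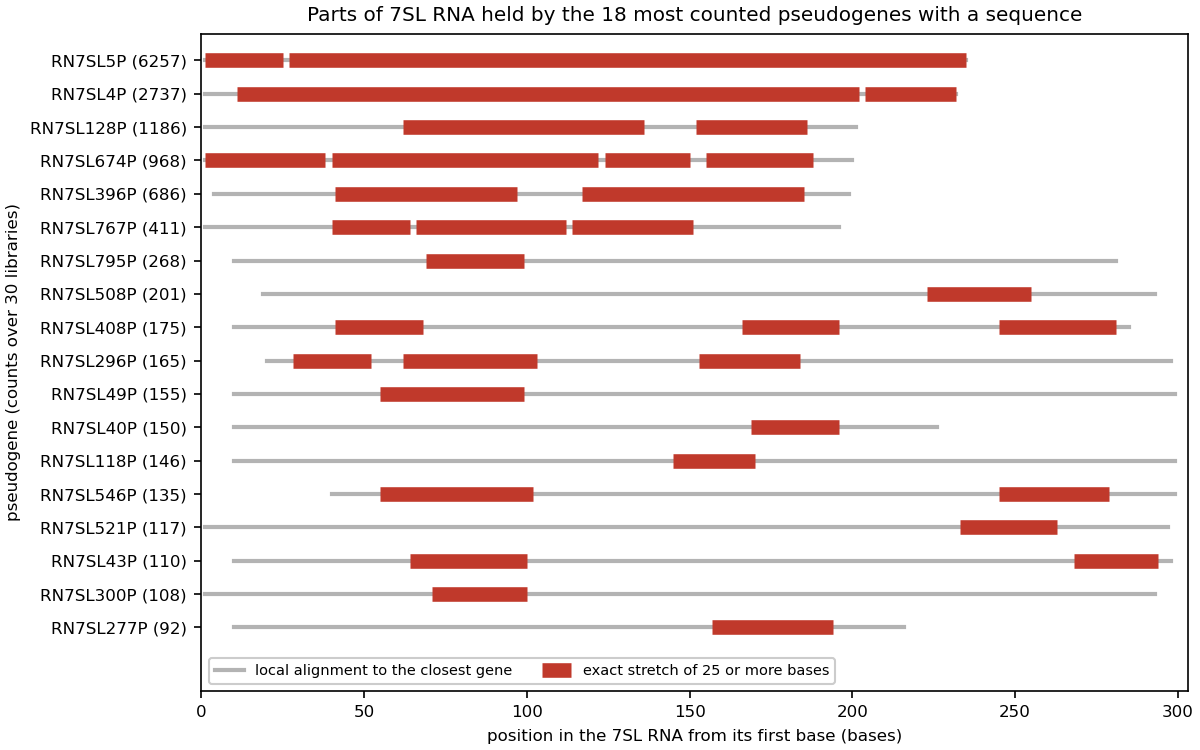
Parts of the 7SL RNA held by the 18 most counted pseudogenes with a GENCODE sequence, by position in the RNA in bases (x axis); each row is 1 pseudogene with its counts over 30 libraries, grey lines span its local alignment to the closest gene and red bars are unchanged stretches of 25 or more bases. RN7SL5P and RN7SL4P are red almost without a break to bases 235 and 232, and the rows from RN7SL795P down are long alignments with 1 to 3 short stretches.

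Counts were sparse. Of the 7803 pseudogenes, 6049 had no count in any library and 1754 had at least 1; 1014 had exactly 1 count and 1473 had 1 to 3. Minus PNK 471 were counted, plus PNK 1502, and in both arms 219. A count of 0 allows up to 3 counts over an arm, 0.0185 CPM minus PNK and 0.0320 CPM plus PNK (counting error only). All the pseudogenes together had 3048 counts minus PNK and 17043 plus PNK, and 114 of them had 10 or more.

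Most of these counts lay in a few copies. RN7SL5P, RN7SL4P, RN7SL128P and RN7SL674P held 50.4% of the counts minus PNK and 56.4% plus PNK, and the top 10 copies of each arm held 63.8% and 66.0%. The 7 copies counted in all 15 minus PNK libraries were RN7SL5P, RN7SL4P, RN7SL128P, RN7SL674P, RN7SL767P, RN7SL296P and RN7SL49P. Plus PNK, 17 copies were counted in all 15. Copies of 250 bases or more were 1069 of the 7803 and held 17121 of the 20091 counts, and 503 of them were counted. The 6636 copies of 160 bases or less held 2783 counts, with 1220 counted. A single short sequence, annotated at 336 sites, was counted at 71 of them with 137 counts in all.

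Counts were concentrated in the copies that repeat the longest part of a gene without a change. Among the 687 copies with a GENCODE entry, 6 had an unchanged stretch of 60 bases or more, all 6 were counted, with 72 to 6257 counts, and they held 62.3% of the counts of the 687 minus PNK and 72.1% plus PNK. The 29 copies with 40 to 59 bases held 12.4% and 5.78%, with 24 counted. The 272 copies with 25 to 39 bases held 19.7% and 15.5%, with 169 counted. The 380 copies under 25 bases held 5.56% and 6.67%, with 157 counted. Over the 356 counted copies the rank correlation (Spearman) of the stretch with the count was 0.35, across copies that share reads, which is a description and not a test. Copies that begin by the gene's base 15 and end by its base 240 were 74 of the 687 and held 69.1% of the counts minus PNK and 76.8% plus PNK. RN7SL5P alone held 612 of the 1740 counts of these copies minus PNK and 5645 of 11009 plus PNK. The limits take in the shape of the most counted copies described above, so these shares restate their counts and are no separate support. The sources used here do not give how reads that match several copies were assigned, so the count of any single copy is uncertain, and how much of it came from reads of RN7SL1, RN7SL2 or RN7SL3 was not tested.

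**Figure D2:**
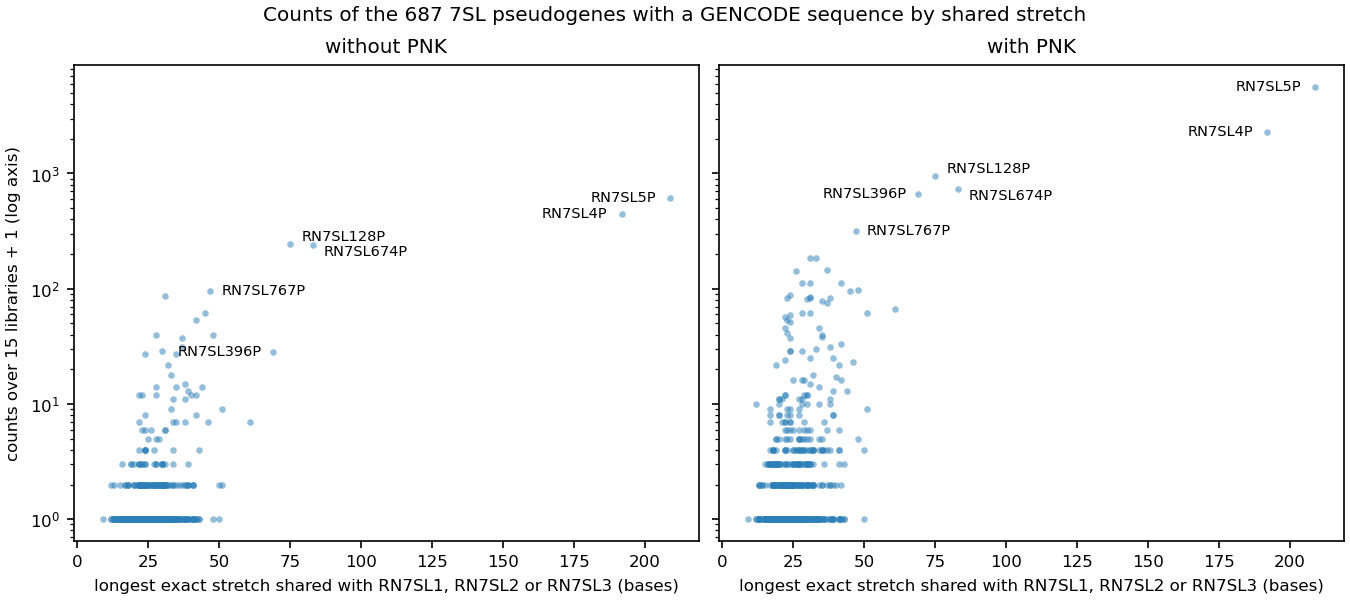
Counts plus 1 of each of the 687 pseudogenes with a GENCODE sequence (y axis, log scale, summed over 15 libraries), minus PNK on the left and plus PNK on the right, against the longest unchanged stretch shared with a 7SL gene in bases (x axis); each point is 1 pseudogene. The points with the longest stretches, RN7SL5P at 209 and RN7SL4P at 192 bases, have the most counts in both arms.

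By annotation, 4102 of the 7803 pseudogenes lie in introns of protein-coding genes, 2822 lie between genes, 660 in introns of other genes, 174 overlap exons of protein-coding genes and 45 exons of other genes. RN7SL5P lies in an intron of PTPRD, RN7SL4P in one of ANKRD28 and RN7SL128P in one of E2F3, each on the strand opposite to the gene. RN7SL674P lies in an intron of GREB1 and RN7SL118P in one of SLC25A43, on the same strand. RN7SL508P, at chr12:118993857-118994160, lies in an intron of SRRM4 on its strand. RN7SL396P (chr8:119862662-119862958), RN7SL767P (chr3:113632704-113632998), RN7SL795P (chr18:70512727-70513008) and RN7SL408P (chr6:134133573-134133869) lie between genes. The counts take no account of strand: in 29 of 29 cases, a row on the other strand that contains a pseudogene with 20 or more counts had at least its count. An exonic or intronic copy therefore cannot be told from the RNA of its host gene.

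Without PNK, RN7SL5P was the most abundant copy in each of the 5 group means. Its level was 5.21, 3.31 and 4.78 CPM in A4, 3.94, 2.65 and 3.35 in A7, 3.18, 3.67 and 2.46 in E4, 6.81, 7.46 and 4.95 in G8, and 2.10, 2.22 and 2.48 in mock. The highest 2 values were G8 libraries 1 and 2, and every THP-1 library but E4 library 3 lay above the 3 mock libraries. RN7SL4P stood at 3.75, 2.30 and 3.56 CPM in A4, 1.97, 1.97 and 2.58 in A7, 1.51, 1.92 and 1.46 in E4, 5.14, 7.27 and 4.46 in G8, and 1.24, 2.39 and 1.99 in mock. Its 3 G8 libraries were above all 12 others. These levels rest on the scaling (TMM, edgeR's trimmed mean of M-values), whose factors were 0.625 and 0.511 in G8 libraries 1 and 2 and 0.984 to 1.35 in the other 13. Per 1000000 counts of the library with no such factor, RN7SL4P stood at 3.21, 3.72 and 4.55 in G8 and at 3.69, 2.33 and 3.55 in A4, which overlap. RN7SL5P then stood at 4.26, 3.81 and 5.05 in G8, and its highest value was 5.16 in A7 library 1.

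RN7SL128P and RN7SL674P were lower and closer together. RN7SL128P ranged from 0.794 CPM (mock library 3) to 3.73 CPM (G8 library 2), with 1.61, 1.10 and 2.15 in A4 and 1.34, 1.40 and 0.794 in mock. RN7SL674P ranged from 0.764 CPM (mock library 1) to 2.60 CPM (A4 library 1). For RN7SL674P all 5 groups overlapped. For RN7SL128P the 3 G8 libraries, at 1.81, 3.73 and 1.49 CPM, lay above those of mock and of A7 (1.39, 1.14 and 1.12), and the other pairs of groups overlapped. Without the TMM factors G8 library 1 stood at 1.13 per 1000000 counts, and G8 overlapped with both. RN7SL396P was at or below 0.562 CPM in every library and had no count in 5 of 15.

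**Figure D3:**
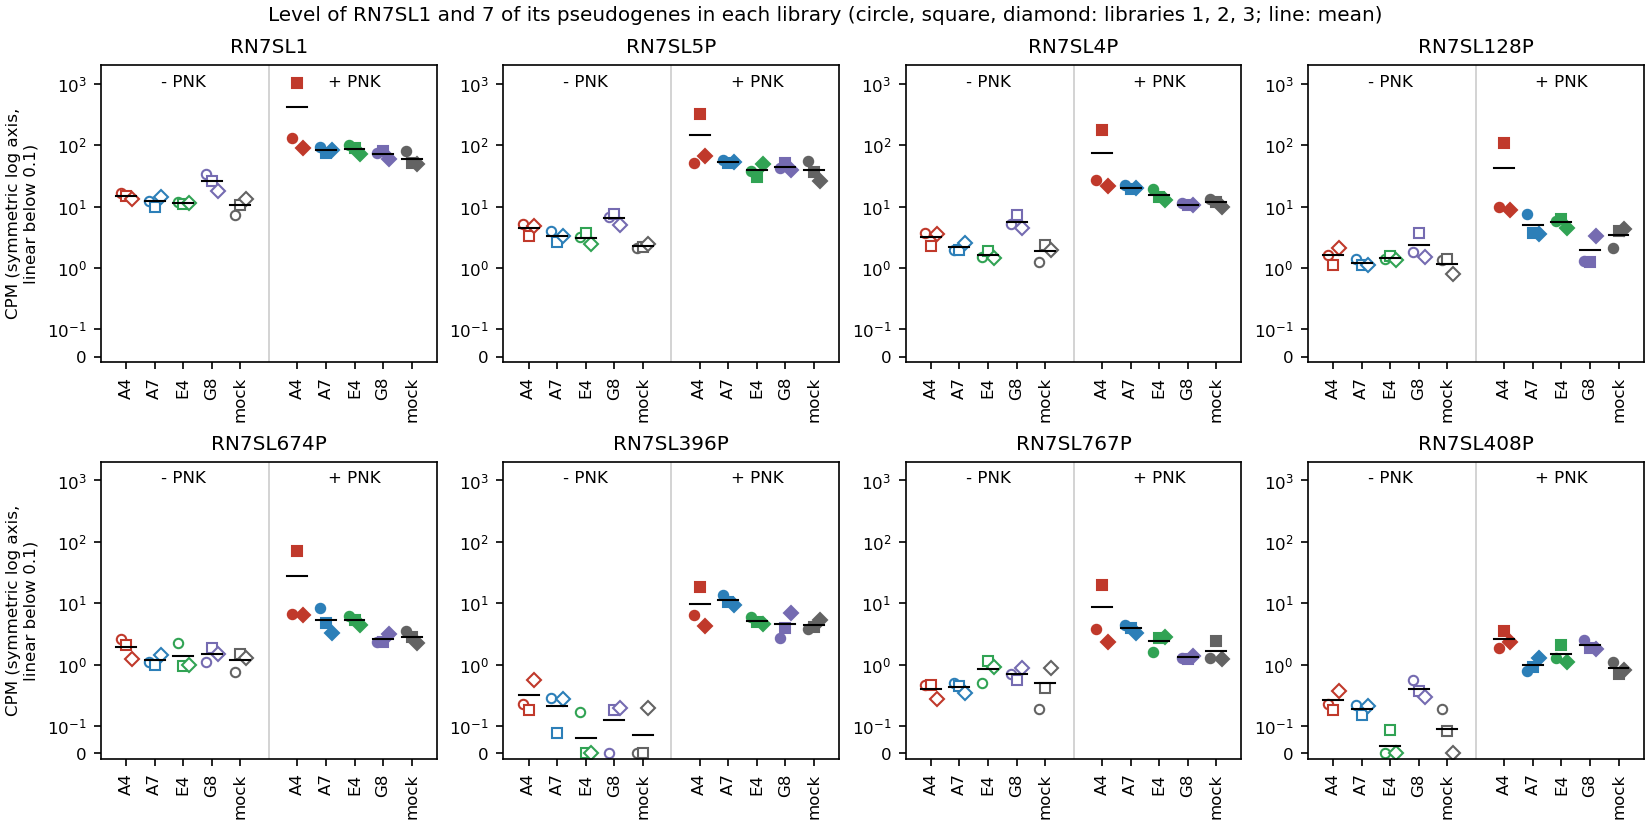
Level of RN7SL1 and 7 pseudogenes in each library (y axis, CPM, log scale that is linear below 0.1), by group on the x axis, open symbols minus PNK and filled symbols plus PNK; symbols are libraries 1, 2 and 3 and lines are means of 3. Minus PNK, RN7SL4P in G8 lies at 4.46 to 7.27 CPM, above the other libraries of that arm, and plus PNK the square of A4 library 2 stands above the rest for RN7SL128P, at 107 CPM.

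A single library stood apart with PNK. Library 2 of A4 held 5001 pseudogene counts, against 590 to 1282 in the other 14 plus PNK libraries. It held 29.3% of all pseudogene counts of that arm but 6.21% of the counts of the rows kept. It also held 37.5% of the counts of the 7SL genes, 10425 against 2124 and 1135 in libraries 1 and 3 of A4. Of 60 pseudogenes with 20 or more counts plus PNK, 40 had their highest CPM there, and A4 library 3, the next, was highest for 4. Some diverged copies were counted almost there alone. RN7SL508P had 153 of its 184 plus PNK counts in that library (83.2%) and RN7SL627P 57 of 61 (93.4%), while RN7SL128P had 509 of 943 (54.0%). Tests that include this library are given with and without it below. Without it, the 4 most counted copies held 54.4% of the plus PNK counts and the top 10 held 63.5%.

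The plus PNK levels show the same split. RN7SL5P stood at 50.7, 327 and 65.4 CPM in A4, 56.9, 51.5 and 53.4 in A7, 37.6, 29.8 and 49.7 in E4, 42.9, 50.7 and 39.5 in G8, and 55.8, 35.9 and 25.8 in mock. Apart from A4 library 2, its 5 groups lay close together. RN7SL4P stood at 26.9, 179 and 21.6 CPM in A4, 22.4, 19.0 and 19.9 in A7, 19.6, 14.5 and 13.0 in E4, 11.3, 10.5 and 10.6 in G8, and 13.4, 11.98 and 9.70 in mock. For this copy A4 and A7 lay above G8 and mock in every library.

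RN7SL128P stood at 9.74, 107 and 8.68 CPM in A4, 7.63, 3.70 and 3.52 in A7, 5.88, 6.39 and 4.53 in E4, 1.28, 1.26 and 3.33 in G8, and 2.08, 4.07 and 4.30 in mock. With TMM factors the 3 A4 libraries were the highest of the 15, and the 3 G8 libraries overlapped with mock alone. Without them A7 library 1, at 7.19 per 1000000 counts, was above A4 library 3, at 6.98, and G8 also overlapped with A7. RN7SL674P stood at 6.63, 70.3 and 6.35 CPM in A4, 8.27, 4.78 and 3.24 in A7, 6.20, 5.33 and 4.38 in E4, 2.35, 2.30 and 3.20 in G8, and 3.52, 2.79 and 2.22 in mock. RN7SL396P had another order: 13.8, 10.5 and 9.29 CPM in A7, above 5.88, 5.02 and 4.69 in E4, 2.78, 3.98 and 7.04 in G8, and 3.84, 4.19 and 5.41 in mock, with 6.36, 18.1 and 4.23 in A4. Outside A7, only A4 library 2 was as high.

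RN7SL767P and RN7SL795P were lower, at 1.25 to 4.45 CPM and 0.128 to 3.02 CPM outside A4 library 2, where both stood at 19.8 CPM. RN7SL408P stood at 1.89, 3.59 and 2.33 CPM in A4 and 1.12, 0.698 and 0.832 in mock, groups that do not overlap. RN7SL118P ranged from 0.617 CPM (A7 library 2) to 3.60 CPM (A4 library 3).

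Summed over all pseudogenes minus PNK, A4 stood at 20.5 ± 2.54 CPM (mean ± SD, n = 3 here and below), with 17.3 ± 1.07 in A7, 16.0 ± 1.14 in E4, 26.8 ± 4.12 in G8 and 14.7 ± 0.586 in mock. With the TMM factors G8 was the highest group and mock the lowest. With library totals alone, the order changed: A7 was highest at 22.2 ± 2.58 per 1000000 counts, followed by A4 at 20.4 ± 2.25, G8 at 18.7 ± 4.91, E4 at 17.2 ± 1.75 and mock at 15.5 ± 0.834. G8 libraries 1 and 2 then stood at 15.6 and 16.1, below every A4 and A7 library, and G8 library 3 at 24.4, the highest of the 15. Plus PNK it was 150 ± 22.9 CPM in A7, 121 ± 4.46 in E4, 126 ± 2.64 in G8 and 112 ± 27.7 in mock, while the A4 libraries stood at 173, 1055 and 183 CPM. Set beside the genes, their summed counts were 0.381 to 0.855 of the summed counts of RN7SL1, RN7SL2 and RN7SL3 minus PNK (median 0.664), and 0.480 to 0.871 plus PNK (median 0.692). The lowest plus PNK ratio was that of A4 library 2, and the next was 0.528. In bulk RNA, fewer cells of a type and less RNA per cell cannot be told apart.

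**Figure D4:**
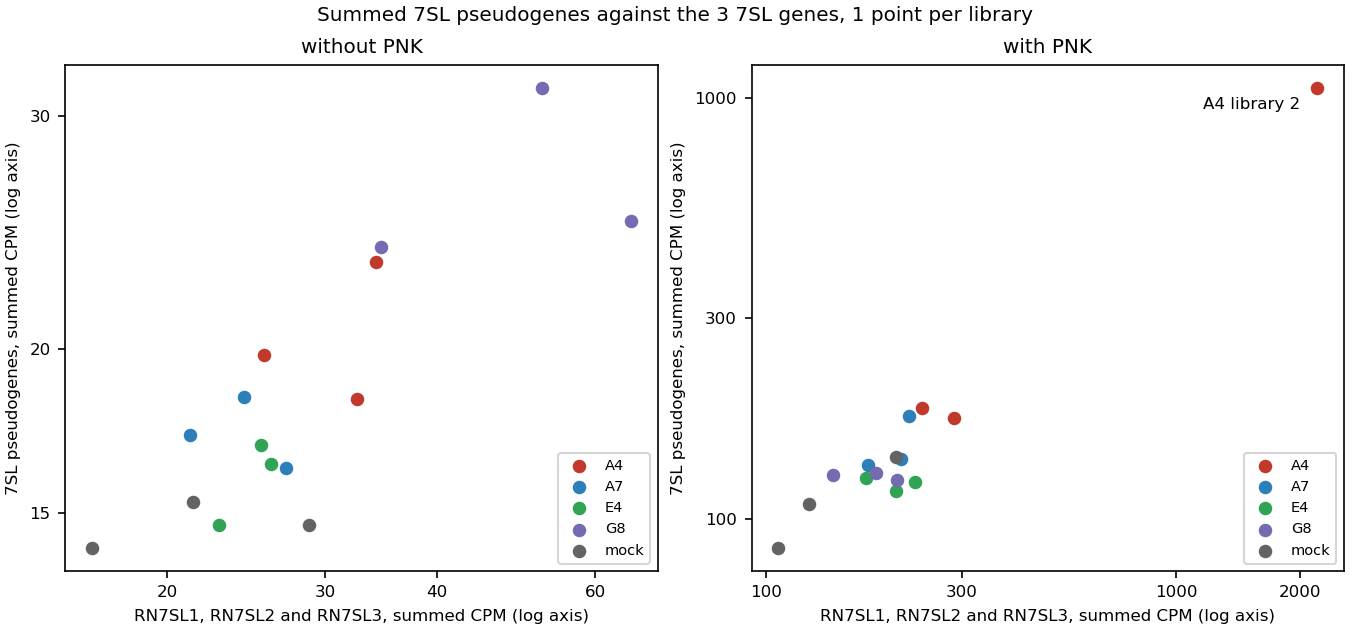
Summed level of all 7SL pseudogenes (y axis, CPM, log scale) against that of RN7SL1, RN7SL2 and RN7SL3 (x axis, CPM, log scale), minus PNK on the left and plus PNK on the right; each point is 1 library, coloured by group. A4 library 2 plus PNK lies apart at 1055 CPM of pseudogenes, and minus PNK the 3 G8 libraries have the highest sums under the TMM factors used here, an order that library totals alone do not give.

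The first comparison asked which pseudogenes differ among the THP-1 groups. It used an F test over A4, A7, E4 and G8 in edgeR's quasi-likelihood model, with Benjamini-Hochberg adjustment over all features tested and a threshold of 0.05. Minus PNK, 4 pseudogenes had enough counts to be tested, and 1 passed, beside 32.7% of all features tested. It was RN7SL4P, whose group means spanned 1.66 on the log2 scale, from 1.63 CPM in E4 to 5.62 CPM in G8 (edgeR adjusted p = 0.0087). With library totals its range was 1.12 (0.0411) and with microRNA factors 3.59 (0.00474). RN7SL5P spanned 0.93 (edgeR adjusted p = 0.0533). The median range over the 4 was 0.84, against 1.24 over all features tested.

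Plus PNK, 10 pseudogenes were tested and 6 passed, beside 22.1% of all features tested. They were RN7SL795P with a range of 4.85 on the log2 scale, RN7SL128P with 4.29, RN7SL674P with 3.35, RN7SL4P with 2.81, RN7SL767P with 2.65 and RN7SL5P with 1.92, and A4 was the highest group for all 6. The edgeR adjusted p-values ran from 0.00408 for RN7SL128P to 0.0308 for RN7SL767P. The median range over the 10 was 2.35, against 0.77 over all features. A pseudogene that passes the count filter through 1 group has to differ, so these counts describe the tested copies only.

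Leaving out A4 library 2 reduced the plus PNK ranges and moved calls. Then 4 of 11 pseudogenes tested passed, beside 15.8% of all features: RN7SL4P with a range of 1.17 on the log2 scale (edgeR adjusted p = 0.00675), RN7SL128P with 2.11 (0.0141), RN7SL396P with 1.21 (0.0187) and RN7SL767P with 1.54 (0.0257). RN7SL674P, RN7SL795P and RN7SL5P no longer passed (edgeR adjusted p = 0.0743, 0.174 and 0.208). Nor did the genes: RN7SL1, RN7SL2 and RN7SL3 passed with that library (0.0123, 0.0140 and 0.0259) and missed the threshold without it (0.260, 0.294 and 0.176).

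The comparisons with mock set each THP-1 group against libraries labelled as another cell line, and all 4 share the same 3 mock libraries. Their marker levels belong beside every such result. The 7 blood cell microRNAs of the list summed to 5486 to 7681 CPM in mock minus PNK, against 5643 to 7695 in A4, 8351 to 10037 in A7, 7655 to 8606 in E4 and 1084 to 6962 in G8; MIR150 was at 0 in mock, A7 and G8. Plus PNK, the blood cell sums were 91.05 to 98.4 CPM in mock and 51.5 to 144 in G8, which overlap. They were higher in A4 (192 to 339), A7 (317 to 593) and E4 (371 to 425). Minus PNK, the 6 epithelial microRNAs summed to 28.9 to 41.5 CPM in mock, with MIR205 at 0. The 6 fibroblast microRNAs summed to 120 to 172 CPM there. Both sums were lower in A4 (20.5 to 26.4 and 54.9 to 69.2) and higher in A7 (53.3 to 65.3 and 173 to 228). They were higher in E4 too, and overlapped with mock in G8. The part of these markers in the results was not tested.

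Minus PNK, G8 differed from mock in 2 of the 5 pseudogenes tested, both higher, beside 26.8% of all features called and 11% called higher. RN7SL5P was 1.48 ± 0.27 higher on the log2 scale (SE, edgeR adjusted p = 0.0025), and RN7SL4P was 1.56 ± 0.30 higher (0.00359). Each was higher in all 3 G8 libraries than in the 3 of mock. The size of both depended on the scaling. With library totals they were 0.87 and 0.94 higher (edgeR adjusted p = 0.0284 for each), and with microRNA factors 3.33 and 3.38 (0.00523 for each). RN7SL1 was 1.31 higher in the same test (0.00629) and RN7SL2 1.16 higher (0.0137), while RN7SL3, at 0.81, missed the threshold (0.0723). With library totals RN7SL1 and RN7SL2 stood at 0.68 and 0.50 and missed it too (edgeR adjusted p = 0.067 and 0.155). Without G8 libraries 1 and 2, RN7SL5P and RN7SL4P still passed, at 1.33 (edgeR adjusted p = 0.0288) and 1.44 (0.0353), with a single G8 library assumed to vary like the other groups.

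No pseudogene passed in A4, A7 or E4 against mock minus PNK with edgeR, beside 1.48%, 0.384% and 4.27% of all features. At an unadjusted p under 0.05 there were 3, 0 and 1 of 5, and the DESeq2 test called 1, 0 and 0. The DESeq2 call in A4 was RN7SL5P, 1.01 higher on the log2 scale (DESeq2 adjusted p = 0.0207), against 0.97 with edgeR (adjusted p = 0.0965). The copy at chr2:112005898-112006044 stood 2.03 lower in A4 than in mock on the log2 scale and missed the threshold (edgeR adjusted p = 0.283).

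Plus PNK, 7 of 11 pseudogenes were higher in A4 than in mock, beside 11.1% of all features called and 8.29% called higher. RN7SL128P was 3.55 ± 0.75 higher on the log2 scale (SE, edgeR adjusted p = 0.00516), RN7SL674P 3.27 ± 0.71 (0.00633) and RN7SL4P 2.69 ± 0.55 (0.00444), each higher in all 3 A4 libraries than in the 3 of mock. RN7SL795P, RN7SL767P, RN7SL5P and RN7SL408P also passed, at 3.02, 2.29, 1.91 and 1.53. With library totals or microRNA factors RN7SL408P, at 1.01 and 0.76, missed the threshold (edgeR adjusted p = 0.0794 and 0.26). The median over the 11 was 1.91, against -0.00 over all features. Without A4 library 2, 3 of them passed, beside 6.04% of all features: RN7SL4P at 1.06 ± 0.21 (edgeR adjusted p = 0.00561), RN7SL128P at 1.39 ± 0.37 (0.0322) and RN7SL674P at 1.20 ± 0.34 (0.0419). RN7SL5P stood at 0.57 (0.294), RN7SL1 at 0.88 (0.0508) and RN7SL2 at 0.99 (0.0464).

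No pseudogene passed in A7, E4 or G8 against mock plus PNK with edgeR, beside 4.94%, 7.87% and 5.52% of all features. At an unadjusted p under 0.05 there were 1, 0 and 1 of 11, and the DESeq2 test called none in any of the 3.

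The last comparison set plus against minus PNK within each group, which shows what end repair adds. It is relative: the scaling used (TMM) placed the median feature 2.57 to 3.39 higher on the log2 scale plus PNK, so each pseudogene is read against that median. In A7, the median of the 6 pseudogenes tested was -0.20, against 3.18 over all features, and in E4 it was -0.15 over 7, against 3.11. In G8 it was -1.36 over 6, against 3.39, in mock -1.58 over 6, against 2.57, and in A4 1.02 over 10, against 2.72. Only the exonic copy at chr17:7581641-7581757, tested in E4 alone, lay above the median of all features, by 2.64. That copy had 0 counts minus PNK, so it passed the count filter through its plus PNK libraries.

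With the TMM factors, RN7SL396P and RN7SL128P went in opposite directions in A7, E4, G8 and mock. Their order does not depend on the scaling, but their directions do. Set against RN7SL128P within the same libraries, which needs no scaling, RN7SL396P had 0.180 of its counts in A7 minus PNK and 2.28 times its counts plus PNK. The ratio was 0.040 and 0.925 in E4, 0.0625 and 2.29 in G8, and 0.0513 and 1.25 in mock. In these 4 groups every plus PNK library had a higher ratio than every minus PNK library. The minus PNK ratios of E4, G8 and mock rest on 0 to 2 counts of RN7SL396P per library. In A4 the ratio was 0.196 and 0.246, with libraries from 0.169 to 0.653 plus PNK and 0.593 without library 2.

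In the edgeR test RN7SL396P was higher plus PNK in A7 by 2.27 ± 0.46 on the log2 scale (SE, adjusted p = 1.87e-06), in E4 by 2.999 (0.00119), in G8 by 2.09 (0.0272) and in mock by 2.35 (0.0147). Its minus PNK counts were 4, 1 and 4 in A7, 2, 0 and 0 in E4, 0, 1 and 2 in G8, and 0, 0 and 2 in mock. RN7SL396P passed the count filter through its plus PNK libraries, so a higher value there was close to fixed in advance. Same-numbered G8 libraries of the arms correlated weakly in their deviations from group means (0.123 to 0.209). With the replicate block the G8 value of RN7SL396P missed the threshold (edgeR adjusted p = 0.0753). RN7SL128P was lower plus PNK in these 4 groups, by -1.37 (edgeR adjusted p = 6.9e-05), -1.46 (7.56e-05), -3.03 (2.84e-05) and -2.23 (9.5e-07). RN7SL674P was lower in the same 4, by -1.21, -1.51, -2.16 and -2.55, and RN7SL4P was lower in G8 (-2.05) and mock (-1.18). With library totals or microRNA rows as the scale, all of these lower values turned positive, so only their order is independent of the scaling.

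**Figure D5:**
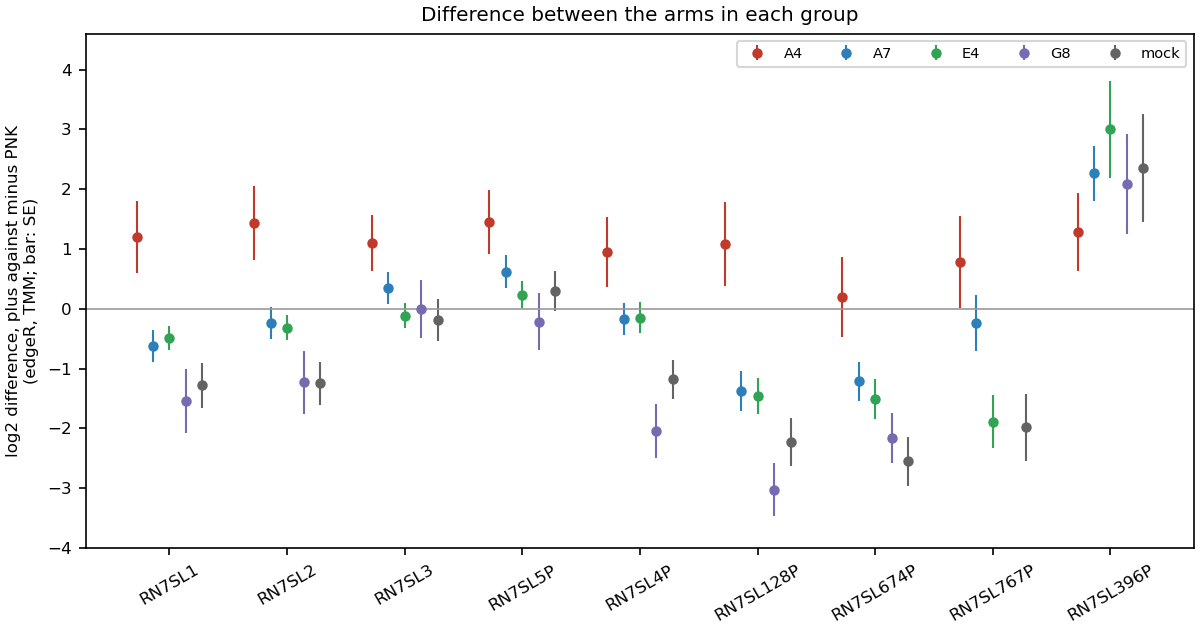
Difference between the arms, plus against minus PNK, on the log2 scale (y axis, edgeR with TMM factors, bars are SE), for the 3 7SL genes and 6 pseudogenes, with 1 point for each group in which the row was tested. RN7SL396P lies above RN7SL128P in all 5 groups, and the points shown lie below the median of all features of their group, which runs from 2.57 to 3.39.

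Counting calls, 4 of 6 pseudogenes passed in A7 (2 higher, 2 lower), 5 of 7 in E4 (2 higher, 3 lower), 4 of 6 in G8 (1 higher, 3 lower), 5 of 6 in mock (1 higher, 4 lower) and 2 of 10 in A4 (both higher). They stand beside 92.7% of all features in A7 (74% higher, 18.7% lower), 90.6% in E4 (72.9% and 17.7%), 90% in G8 (75.5% and 14.5%), 80.6% in mock (62.9% and 17.7%) and 86.7% in A4 (69.9% and 16.9%). The 2 in A4 were RN7SL5P at 1.45 (edgeR adjusted p = 0.0183) and RN7SL118P at 1.97 (0.0389), the latter with 1, 1 and 0 counts minus PNK. Without A4 library 2 plus PNK neither passed, RN7SL5P stood at -0.03, and 3 pseudogenes were lower instead: RN7SL674P at -2.02, RN7SL128P at -1.21 and RN7SL4P at -0.81, beside 79.4% of all features.

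RN7SL5P also changed its place against the gene it copies. It had 0.272 of the counts of RN7SL1 in A7 minus PNK and 0.648 plus PNK. The values were 0.270 and 0.448 in E4, 0.246 and 0.628 in G8, 0.217 and 0.653 in mock, and 0.299 and 0.359 in A4, where it was 0.496 plus PNK without library 2. In E4 and A4 the libraries of the arms overlapped. In A7, G8 and mock the shift is not particular to this copy. The gene RN7SL3 went from 12.4% to 23.2% of the summed counts of the 3 genes in mock (means of 3 libraries). It went from 10.4% to 23.2% in G8 and 13.0% to 20.4% in A7. In mock, G8 and A7 the RN7SL3 shares of the arms did not overlap. The means went from 12.7% to 15.6% in E4 and 12.8% to 16.4% in A4, where the libraries of the arms overlapped. In A4 they ran from 12.1% to 13.1% minus PNK and from 9.30% to 25.1% plus PNK. These shares are means over libraries, unlike the ratios of summed counts given for RN7SL5P. RN7SL128P had a lower ratio to RN7SL5P plus PNK than minus PNK. It went from 0.365 to 0.0906 in A7, from 0.467 to 0.144 in E4, from 0.345 to 0.0505 in G8 and from 0.527 to 0.0936 in mock, with no overlap between the libraries of the arms. In A4 it was 0.361 and 0.278 (0.165 without library 2), and the libraries overlapped, at 0.309 to 0.451 minus PNK and 0.133 to 0.328 plus PNK.

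A few pseudogenes had a different split between the arms. Over all pseudogenes 15.2% of the counts were minus PNK, and over the 7SL genes 14.6%; without A4 library 2 plus PNK these were 20.2% and 21.5%. Of 68 pseudogenes with 20 or more counts, 5 had more counts minus than plus PNK, 3 of them with over 75%, and 10 had none minus PNK. Without A4 library 2 plus PNK, 12 of the 68 had more counts minus PNK, among them RN7SL49P (61 against 48) and RN7SL546P (39 against 36), and the number with over 75% was again 3. The 3 with all libraries were chosen after their values were seen. The copy at chr2:112005898-112006044, in an intron of MERTK on the other strand, had 76 counts minus PNK, in 14 libraries, and 2 plus PNK. The copy at chr12:51173589-51173705, between genes, had 31 and 2, and that at chr17:30728265-30728517, in an intron of SUZ12P1, had 22 and 5.

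Copies in exons of protein-coding genes lay at the other end. The 174 of them had 25 counts minus PNK and 854 plus PNK, 34.2 times as many, against 5.89 times for copies in introns of such genes. Without A4 library 2 plus PNK these were 32.4 and 4.06 times. These too were named after their values were seen. The copy at chr17:7581641-7581757, in an untranslated exon part of CD68, a lysosomal protein of macrophages, had 0 and 122 counts. The copy at chr6:33301293-33301409, over an untranslated part of TAPBP, which helps load peptides onto class I molecules, had 1 and 108. The copies at chr6:34286961-34287076 (NUDT3) and chr16:29697840-29697985 (QPRT) had 1 and 77, and 0 and 36. Summed over the exonic copies plus PNK, mock stood at 8.09 ± 2.02 CPM, G8 at 11.1 ± 2.21, E4 at 10.2 ± 2.61, A7 at 8.58 ± 3.11 and A4 at 7.50 ± 1.69, groups that overlap. A4 library 2, which led for the intronic copies, did not stand apart here: the 15 libraries ran from 5.40 to 13.2 CPM.

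The other Pol III transcripts give the setting. Of 21 symbols listed, 19 were found in 18 rows, among them the 3 7SL genes. In A4 against mock plus PNK, 8 of 17 tested were higher and none lower, beside 8.29% of all features called higher: RN7SL1, RN7SL2, RN7SL3, RMRP (the RNase MRP RNA), RPPH1 (the RNase P RNA), the Y RNA genes RNY1 and RNY5, and the vault RNA gene VTRNA1-3. Their median over the list was 0.90 on the log2 scale. Without A4 library 2, 4 of 17 were higher, beside 4.9% of all features, and they were RN7SL2, RNY1, RNY5 and RMRP. With library totals 4 were higher and 2 lower.

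In G8 against mock minus PNK, 4 of 16 were higher and 2 lower, with a median of 0.50, beside 11% of all features called higher and 15.8% lower. With library totals none was higher and 4 were lower, with a median of -0.11, and with microRNA factors 12 were higher. In A4, A7 and E4 against mock minus PNK none of 16 was higher. In A7 and E4 0 and 1 were lower, beside 0.219% and 3.18% of all features called lower. In A4 1 was lower with TMM factors and 0 with library totals, beside 1.48% of all features called in either direction with TMM. The call in A4 and E4 was VTRNA2-1, at -1.84 and -2.01 (edgeR adjusted p = 0.0364 and 0.0153). It was also lower in G8, at -1.24 (0.0306). Plus PNK, 1, 3 and 3 of 17 were higher in A7, E4 and G8, beside 3.2%, 5.39% and 2.86% of all features, with RNY5 the 1 in A7. Across the THP-1 groups 7 of 16 passed minus PNK, beside 32.7% of all features, and 11 of 17 plus PNK, beside 22.1%. Without A4 library 2 the plus PNK count was 6 of 17, beside 15.8%.

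Within groups, 8 to 11 of the list were lower and 2 to 5 higher plus PNK than minus PNK under the TMM scaling, while 14.5% to 18.7% of all features were lower and 62.9% to 75.5% higher. With library totals 13 to 14 of the list were higher and 0 to 2 lower, and with microRNA factors all that were tested were higher in all 5 groups. RMRP and VTRNA1-3 stayed below 0 with library totals in A7, E4, G8 and mock, at -1.05 and -0.91, -0.06 and -0.80, -0.89 and -1.56, and -1.19 and -0.74, unlike RN7SL128P and RN7SL674P, which turned positive there. In mock they were not alone: 4 of the 17 listed transcripts tested lay below 0 with library totals.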

How the data were processed

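Small RNA was sequenced with and without PNK. The authors deposited raw counts, not normalized, with 1 row per annotated feature. Per the submitters' processing notes, Trim Galore, FastQC, Bowtie2 2.3.5.1, SAMtools 1.9, deepTools 3.2.1 and bedtools 2.28.0 were used with GRCh38. The sources used here do not give how reads with several alignments were counted. In 1344 of 1344 cases a row on the other strand that contains another short structured RNA with 20 or more counts had at least its count.

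Rows were reduced to 85933 that do not overlap, short structured RNAs first, then 7SL copies with longer ones first. Overlapping rows share reads, so the library totals are those of the kept rows. CPM values use TMM factors (0.511 to 1.35 minus PNK, 0.793 to 1.30 plus PNK). Tests used edgeR 4.0.16 in R 4.3.3 (glmQLFit and glmQLFTest, filterByExpr, prior count 2 for log2 CPM, Benjamini-Hochberg threshold 0.05 over all features tested). The fits of an arm held 12 libraries for the test across the THP-1 groups and 15 for the comparisons with mock, and those of a group 6 for plus against minus PNK. Fits were tested on simulated data. Alternatives were DESeq2 1.42.0, other scalings, no filter, a replicate block and libraries left out; leaving out A4 library 2 from summed counts and from the split between the arms, library totals for summed CPM, and other scalings of the Pol III list were added after values were seen.

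Sequences and annotation come from GENCODE release 29, and the sequences themselves are not reported here. Local alignments used Biopython 1.88 (match 1, mismatch -2, gap opening -3, extension -1), with bedtools 2.31.1 for overlaps. The copies named are the 10 with the highest mean CPM in each arm, those past the threshold across THP-1 groups, and up to 3 per direction with the largest change in each other comparison whose libraries do not overlap and whose level is at or above the median. The pseudogenes, the Pol III list and the marker lists were chosen with earlier results of these data known. The con and POLR3G oligonucleotide samples are not analysed here.

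The pairing of libraries by replicate number was checked by correlating deviations from group means. All 3 same-numbered pairs exceeded 0.1 minus PNK for A4 and E4 (0.431 to 0.752), A4 and G8 (0.120 to 0.485), E4 and G8 (0.111 to 0.302) and A7 and mock (0.157 to 0.493), and for G8 between the arms. All 3 were negative minus PNK for A4 and mock (-0.770 to -0.416), E4 and mock (-0.675 to -0.302) and G8 and mock (-0.454 to -0.210). A value over 0.1 therefore does not by itself show that the numbers pair the libraries.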

Additional observations from a re-analysis of the deposited data

How the results depend on the processing

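Counts of pseudogenes called were recomputed under each alternative, and those that moved by over 1.5 times follow; the cause was not tested. Across the THP-1 groups minus PNK, 1 was called, against 2 with DESeq2 size factors, 3 with microRNA factors, 2 with the DESeq2 test and 0 of 390 without the filter, and 1 to 2 with a library left out. Plus PNK, 6 became 27 of 1288 without the filter, 10 of 36 without G8 libraries 1 and 2, and 4 to 9 with a library left out. Against mock minus PNK, A4 went from 0 to 1 with the DESeq2 test (0 to 0 with a library left out), and G8 from 2 to 4 with microRNA factors, 0 without the filter and 2 to 3 with a library left out. Against mock plus PNK, A4 went from 7 to 4 with the DESeq2 test, which gave RN7SL128P and RN7SL674P no adjusted p, to 23 of 1502 without the filter, and to 3 to 10 with a library left out; A7 went from 0 to 2 without the filter. Plus against minus PNK in A4, 2 became 5 with DESeq2 size factors, 10 with library totals, 10 with microRNA factors, 1 with the DESeq2 test, 16 without the filter and 0 to 4 with a library left out. Without the filter the counts were 12 in A7, 17 in E4, 14 in G8 and 9 in mock, and with a library left out 3 to 8, 5 to 9, 2 to 6 and 4 to 5. The scale reversed the lower values plus against minus PNK (library totals, then microRNA factors): RN7SL128P became 1.71 and 6.06 in A7, 1.81 and 6.44 in E4, 0.44 and 3.73 in G8, and 1.80 and 6.94 in mock. RN7SL674P became 1.87 and 6.24 in A7, 1.76 and 6.40 in E4, 1.28 and 5.10 in G8, and 1.46 and 6.59 in mock. RN7SL4P became 1.41 and 5.06 in G8 and 2.84 and 7.98 in mock, where it stood at 0.28 without the filter and missed the threshold with DESeq2 size factors (edgeR adjusted p = 0.510) and the DESeq2 test (0.533). With all rows as the total in place of the kept rows, the pseudogenes minus PNK went from 18.8 to 0.997 CPM. With every row of the rule, mean counts per library went from 203 to 213 minus PNK and from 1136 to 1455 plus PNK. Without A4 library 2, the 1136 counts per library of the pseudogenes themselves became 860.

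With the replicate block, the counts called were 1 minus PNK and 4 plus PNK across the THP-1 groups, 2 in G8 against mock minus PNK, 6 in A4 against mock plus PNK, and 1, 4, 5, 3 and 4 in A4, A7, E4, G8 and mock for plus against minus PNK; the other comparisons stayed at 0. Where the numbers pair the libraries, RN7SL396P in G8 was the call lost. Plus against minus PNK in G8 without its libraries 1 and 2 was not run, since 1 library per arm remained. With few counts per copy, 4 to 11 of 7803 pseudogenes could be tested, and the others are not shown to be unchanged.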

Other observations

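Several diverged copies outside the tested set were counted mainly in A4 library 2 plus PNK. RN7SL627P and the near-identical copies at chr17:20340743-20341046 and chr17:18605056-18605356 had 57 of 61, 74 of 84 and 72 of 82 of their plus PNK counts there. RN7SL521P had 93 of 112. A further 123 pseudogenes had counts in that library alone. The named copies were picked after their values were seen.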
